A study of Mus musculus with 8 samples.

Results

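Integrins are cell-surface receptors made of an alpha and a beta chain that bind matrix proteins or other cells, and focal adhesion linkers tie their tails to actin. The 36 members described here are the probe sets that carry a single gene symbol starting with Itga, being Itgb followed by digits, or being 1 of a fixed set of linker genes. They comprise 25 integrin chains and 11 linkers, out of 72688 probe sets on the array, 30604 of them with a single symbol. The probe set of Itga1 also names Pelo and is therefore no member, and Ptk2, the focal adhesion kinase gene, was not analysed here.

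The study measured RNA flushed with TRIzol from the lumen of the thoracic aorta, 1 array for each of 8 female mice. The 4 EKO mice (Mef2cCdh5EKO) carried Cdh5-CreERT2 and floxed Mef2c (Mef2c f/f) and received 5 daily tamoxifen injections at 10 weeks of age. The 4 control mice were littermates with the same Cdh5-CreERT2 transgene and floxed alleles, injected with the vehicle, sunflower seed oil with 10% ethanol. Tissue was collected on day 14, counted from injection 1. The Cdh5 promoter drives the inducible Cre in endothelial cells, so other cells in the flush would keep Mef2c, the gene of a MADS-box transcription factor. No control mouse received tamoxifen, and effects of the drug and of the deletion cannot be told apart.

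The values are log2 expression made by the authors with SST-RMA. Values of different probe sets depend on their probes, so each gene is compared only with itself between arrays. Across probe sets, which are not independent replicates, any pair of arrays had r of 0.983 to 0.990. Control probe sets marked neg had array medians between 7.34 and 7.45. All 10 endothelial markers passed the level filter, Pecam1 and Cdh5 among them, but Kdr and Robo4 averaged 6.81 and 6.25, below those medians. The mean of the 10 lay between 12.9 and 13.2 on the EKO arrays and likewise on the control arrays. Mef2c, whose probe set reads the whole transcript cluster, averaged 9.75 ± 0.20 in EKO and 9.77 ± 0.11 in control aortas (SD, n = 4 each), with a limma adjusted p of 0.946. The labels do not give the floxed exons, so this value does not check the deletion.

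In endothelium, integrins with the beta1 chain hold the cell to its basement membrane, and talins and kindlins switch them to the binding state. The complex of integrin-linked kinase, PINCH and parvin, with vinculin, paxillin and zyxin, then connects the receptor to actin and signalling. Leukocytes and platelets use chains of their own, among them beta2 with alphaL, alphaM or alphaX, and alphaIIb. RNA of such blood cells may be present in a luminal flush, and in these bulk samples fewer cells of a type and less RNA per cell cannot be told apart.

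Because Mef2c is the deleted gene, the promoters of the members were searched on both strands for the MEF2 consensus and for the CArG box, the site of the related MADS-box factor SRF. RefSeq promoters (GRCm38.p6), from 250 bases before to 50 bases after a gene start, were on hand for 25 of the 36 members, with 30 starts. The MEF2 consensus occurred at 2 of these starts, in Itga10 and at 1 of the 3 starts of Lims1, against 3.19% of all 32851 promoters. The CArG box occurred at 3, in Vcl, Fermt2 and Itgb6, against 1.63% of all promoters. No match to one motif overlapped a match to the other. The promoters of the tested members with a match are printed 5′ to 3′ with the match in capitals, followed by that of Itga5, the member with the smallest p below, which held neither motif in this window.
Itga10 (chr3:96645334-96645633, plus strand): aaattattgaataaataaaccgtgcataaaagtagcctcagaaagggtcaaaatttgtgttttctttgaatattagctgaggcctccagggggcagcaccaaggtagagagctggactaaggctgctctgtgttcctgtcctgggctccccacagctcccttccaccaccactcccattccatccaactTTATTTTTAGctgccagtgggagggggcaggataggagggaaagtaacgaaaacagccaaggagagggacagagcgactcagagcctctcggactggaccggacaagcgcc
Lims1 (chr10:58351713-58352012, plus strand): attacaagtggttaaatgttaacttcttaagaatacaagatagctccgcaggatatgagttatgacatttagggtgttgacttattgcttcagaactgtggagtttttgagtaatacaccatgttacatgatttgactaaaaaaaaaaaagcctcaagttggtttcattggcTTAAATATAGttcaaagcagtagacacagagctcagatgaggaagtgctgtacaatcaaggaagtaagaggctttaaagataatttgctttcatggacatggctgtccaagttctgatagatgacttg
Vcl (chr14:20929148-20929447, plus strand): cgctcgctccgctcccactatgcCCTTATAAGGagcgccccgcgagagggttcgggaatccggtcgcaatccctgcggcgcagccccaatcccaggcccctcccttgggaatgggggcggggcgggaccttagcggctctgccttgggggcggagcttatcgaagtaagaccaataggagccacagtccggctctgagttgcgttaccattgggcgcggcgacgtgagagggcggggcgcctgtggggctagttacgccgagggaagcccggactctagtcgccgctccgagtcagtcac
Fermt2 (chr14:45530016-45530315, minus strand): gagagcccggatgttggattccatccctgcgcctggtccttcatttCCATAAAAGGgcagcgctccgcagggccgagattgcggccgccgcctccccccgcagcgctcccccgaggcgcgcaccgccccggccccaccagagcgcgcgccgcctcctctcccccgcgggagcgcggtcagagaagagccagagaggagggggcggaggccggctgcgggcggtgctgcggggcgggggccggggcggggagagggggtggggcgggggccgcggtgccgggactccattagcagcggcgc
Itga5 (chr15:103366742-103367041, minus strand): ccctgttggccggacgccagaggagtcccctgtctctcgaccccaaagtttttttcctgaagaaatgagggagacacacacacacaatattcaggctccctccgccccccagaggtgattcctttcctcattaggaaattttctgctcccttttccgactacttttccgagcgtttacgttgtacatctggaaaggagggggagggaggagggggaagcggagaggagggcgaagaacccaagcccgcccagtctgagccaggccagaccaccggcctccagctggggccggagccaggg

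The first base of the match lay 61 bases before the start in Itga10, 78 in Lims1, 227 in Vcl and 204 in Fermt2. Matching letters do not show that a factor binds there. Lims1 and Itga10, whose promoters held the MEF2 consensus, differed by 0.14 (SE 0.13) and -0.03 (SE 0.06) between EKO and control arrays. Vcl and Fermt2, with the CArG box, differed by -0.02 (SE 0.22) and -0.09 (SE 0.14). Each of these 4 differences was smaller than or close to its standard error.

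No member passed the test between EKO and control aortas. Of the 36 members 30 lay above the filter on level, a mean over all arrays above 6.14, and were tested with limma over 16232 genes. At an adjusted p under 0.05 limma called 0 members and 0 of the 16232 genes (0%), the smallest adjusted p being 0.549 for a member and 0.478 for any gene. At an unadjusted p under 0.05 it gave 1 of the 30 members, Itga5, and 8.93% of all genes tested, 5.42% in the direction higher in EKO and 3.51% lower. The groups did not overlap in 1 tested member, Itgb1, against 6.08% of all genes, 3.41% higher and 2.67% lower in EKO. Among protein-coding genes 5.86% had an unadjusted p under 0.05, 4.48% did not overlap, and 3.44% did not overlap with EKO lower. For either count 1 of 30 members was a smaller share than the 8.93% or 6.08% over all genes, whereas for groups that did not overlap with EKO lower it was slightly above 2.67%.

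Of the 30 tested members 9 were higher and 21 lower in EKO aortas, with a median difference of -0.04 on the log2 scale. Over all genes tested 55.1% were lower and the median was -0.02. Over the 11217 protein-coding genes 66.5% were lower, with a median of -0.05, close to the members. The 12 tested alpha chains were 4 higher and 8 lower, the 7 beta chains 3 higher and 4 lower, and the 11 linkers 2 higher and 9 lower, with 0 past the adjusted limma threshold in each. Their medians were -0.04, -0.07 and -0.04. Differences under 0.2 in either direction made up 20 of the 30. The 95% confidence interval lay within 0.5 either way for 16 members, and reached 1 or -1 for 4, Itgal, Itga4, Itgb2 and Itgam.

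**Figure D1:**
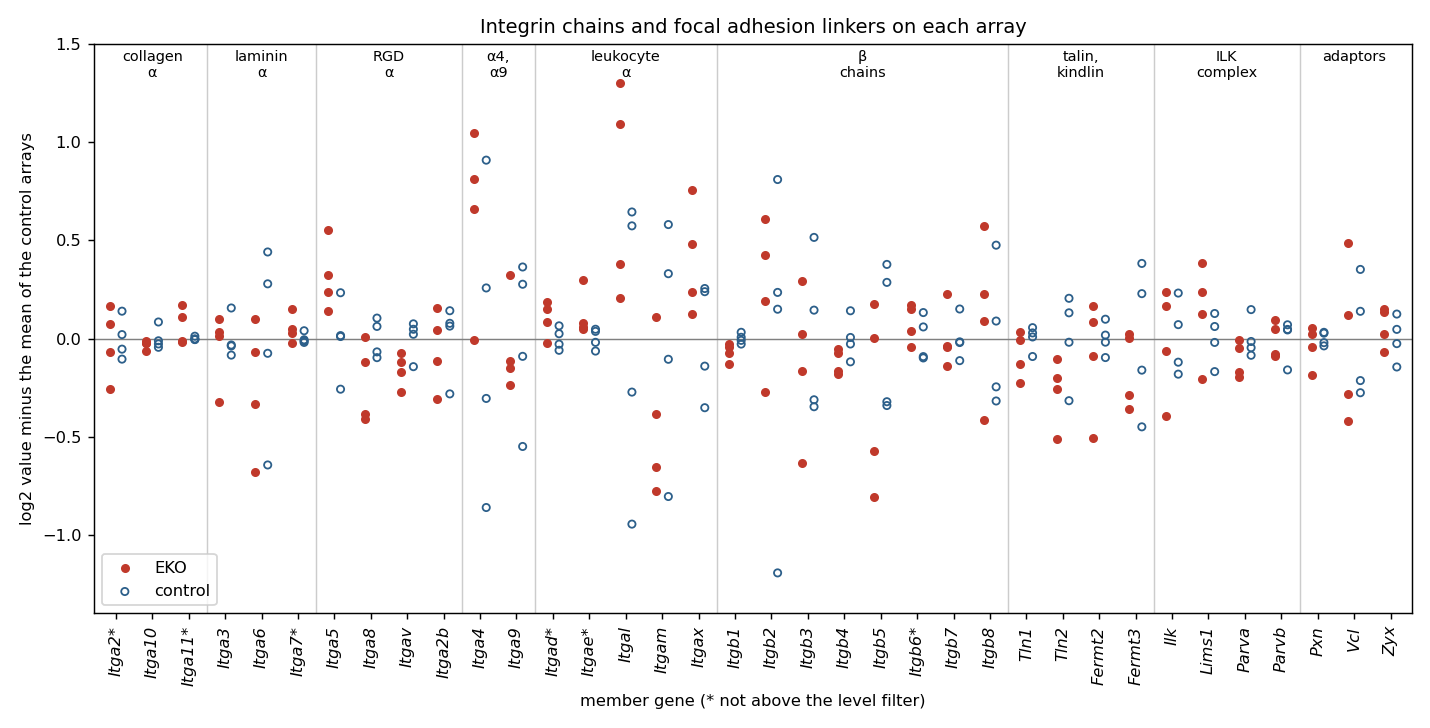
Log2 value of each of the 36 members on each array, minus the mean of the 4 control arrays (filled points, EKO; open points, control), ordered by role. Itgb1 varies least among the members shown in the beta chain block, and the points of Itgal, Itga4, Itgb2 and Itgam spread widely in both groups.

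**Figure D2:**
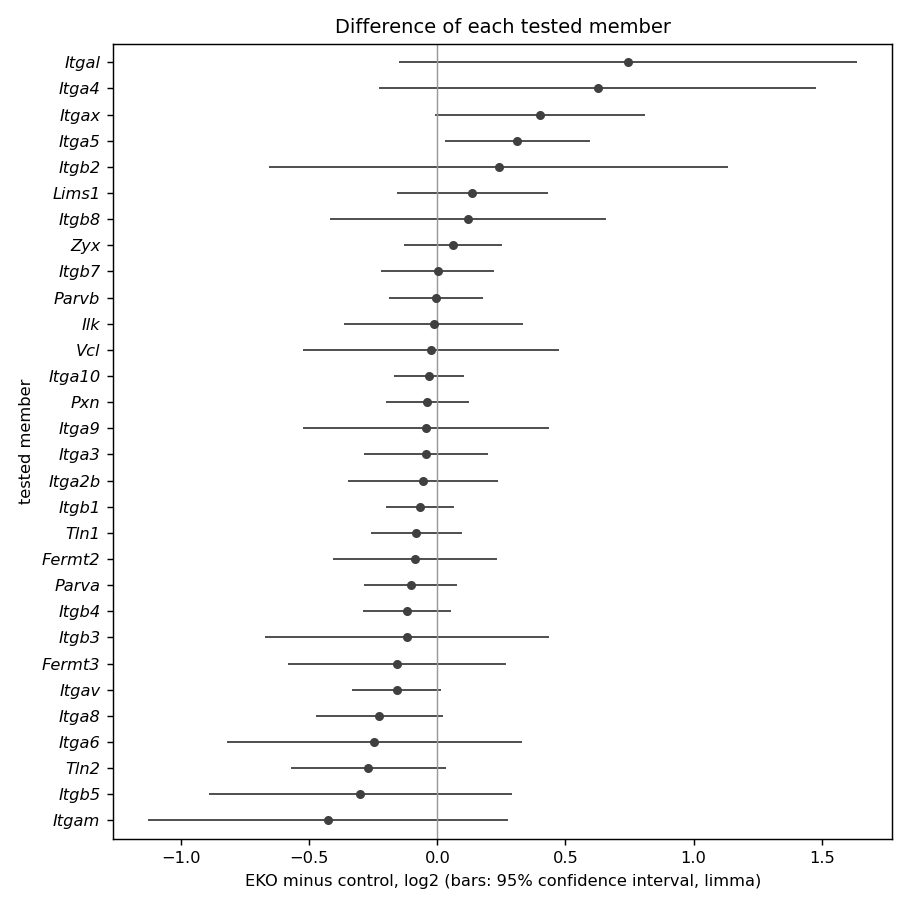
Difference of each of the 30 tested members, EKO minus control on the log2 scale, as points with 95% confidence intervals from limma. The interval of Itga5, from 0.03 to 0.60, is the one that leaves out 0, before any adjustment for the 16232 genes tested.

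Among the alpha chains that bind the RGD sequence of fibronectin and related proteins, Itga5 stood highest in EKO aortas. Itga5, the fibronectin receptor chain that pairs with beta1, read 14.78, 14.37, 14.56 and 14.47 on EKO arrays 1 to 4, against 14.47, 14.25, 14.24 and 13.97 on control arrays 1 to 4. EKO arrays 1, 3 and 4 lay above every control value, array 4 barely so, and EKO array 2 lay below control array 1, so the groups overlapped. The difference was 0.31 (SE 0.12, 1.24-fold; limma unadjusted p = 0.0348, adjusted p = 0.549). Itga5 alone among the tested members had a 95% confidence interval, 0.03 to 0.60, that left out 0. With every array centred on its median the difference was 0.25 and the limma unadjusted p 0.0977. That p was 0.0759 after a further quantile normalization and 0.0817 with the smooth muscle markers as a covariate, and 0.0585 with unmoderated variance.

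Itgav, the alphav chain, which pairs with several beta chains in vitronectin receptors, lay lower in EKO arrays. Its values were 8.60, 8.41, 8.56 and 8.51 on EKO arrays, against 8.53, 8.72, 8.75 and 8.70 on control arrays. Control array 1 lay within the EKO range, and the difference was -0.16 (SE 0.08, limma adjusted p = 0.580). Itga8, a chain of smooth muscle and other mesenchymal cells, differed by -0.23 (SE 0.11, limma adjusted p = 0.583). It ranged from 6.85 to 7.27 in EKO and from 7.17 to 7.37 in control arrays, below the control probe sets marked neg throughout. The mean of 7 smooth muscle markers was 7.74 to 8.41 on EKO and 7.58 to 7.95 on control arrays. Of these markers 5 were higher in EKO, Acta2 by 0.74, Tagln by 0.61 and the others by 0.0315 or less. Myh11, Lmod1, Des and Cnn1 averaged below the neg control medians. With the marker mean as a covariate Itga8 differed by -0.17 (limma unadjusted p = 0.186, adjusted p = 0.586). Itgav differed by -0.21 in that fit (limma unadjusted p = 0.0321, adjusted p = 0.439). The part of smooth muscle cells in the result was not tested.

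The shared beta chain Itgb1 had the smallest spread within groups of the 30 tested members. It read 13.52, 13.57, 13.60 and 13.62 on EKO arrays, against 13.62, 13.68, 13.64 and 13.65 on control arrays. Every EKO value lay below every control value, but the highest EKO value, 13.618, and the lowest control value, 13.619, nearly met. The difference was -0.07 (SE 0.06, 1.05-fold lower; limma adjusted p = 0.704), and its 95% confidence interval ran from -0.20 to 0.06. Its SD within groups, 0.04, was at the 0.462 percentile of all genes tested. With each gene's own variance in place of limma's moderated one, the unadjusted p was 0.0348 and the adjusted p 0.536.

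Itgb4, which joins alpha6 in a laminin receptor, was also lower in EKO arrays, with 11.03, 11.14, 11.04 and 11.16 against 11.09, 11.21, 11.35 and 11.18 in control arrays. The ranges overlapped at control array 1 (difference -0.12, SE 0.08, limma adjusted p = 0.636). Itgb5, a partner of alphav, differed by -0.30 (SE 0.26, limma adjusted p = 0.712) and Itgb3, the beta3 chain of platelets and vessel cells, by -0.12 (SE 0.24, limma adjusted p = 0.883). Both spread widely within groups, Itgb5 from 9.23 to 10.22 in EKO and from 9.70 to 10.42 in control arrays. Itgb7 and Itgb8 differed by 0.0013 (SE 0.10) and 0.12 (SE 0.24). Itgb6, an epithelial chain, lay under the filter on level, at 4.79 ± 0.10 in EKO and 4.71 ± 0.11 in control aortas (SD, n = 4 each).

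**Figure D3:**
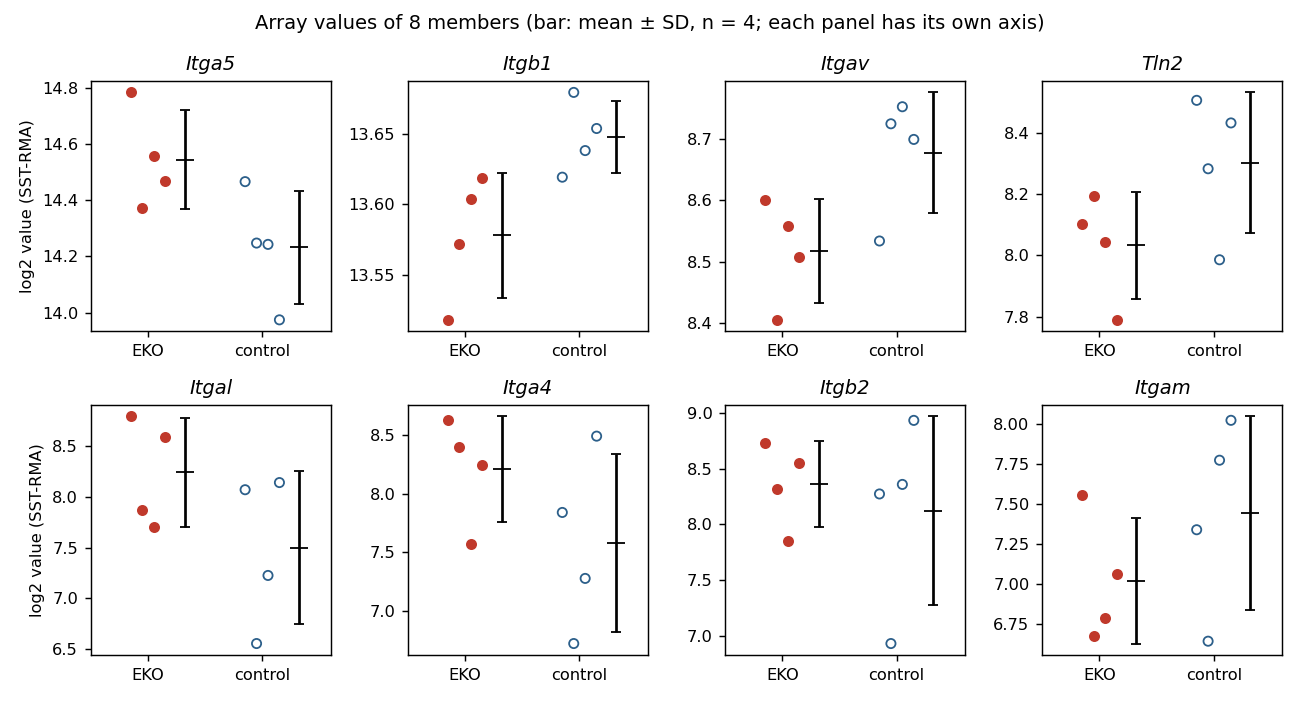
Log2 values of 8 members on the 4 EKO arrays (filled) and the 4 control arrays (open), with mean ± SD beside them and a separate axis for each gene. Itgb1 shows no overlap, with EKO values of 13.52 to 13.62 and control values of 13.62 to 13.68, whereas Itgb2 ranges from 7.85 to 8.73 in EKO and from 6.93 to 8.93 in control arrays.

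Of the 3 laminin receptor alpha chains, the 2 tested had differences below 0 that did not pass. Itga3 read 11.04, 10.70, 11.13 and 11.06 on EKO arrays, against 11.18, 10.99, 10.99 and 10.94 on control arrays, a difference of -0.04 (SE 0.11, limma adjusted p = 0.902). EKO array 2 was the lowest of all 8 arrays for this gene, and the other 3 EKO arrays lay inside the control range. Itga6, the partner of beta1 and beta4, read 7.02, 7.29, 6.68 and 7.46 on EKO arrays, against 7.28, 6.71, 7.64 and 7.80 on control arrays. The ranges overlapped (-0.25, SE 0.25, limma adjusted p = 0.762). Itga7, a muscle laminin receptor chain, stayed under the filter at 5.76 ± 0.07 in EKO and 5.71 ± 0.03 in control aortas (SD, n = 4 each).

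Of the 3 collagen receptor alpha chains 1 was tested. This was Itga10, known from cartilage, at 6.16, 6.17, 6.17 and 6.12 on EKO arrays, against 6.27, 6.16, 6.14 and 6.18 on control arrays. Its mean over all arrays just passed the filter of 6.14, and the groups overlapped (-0.03, SE 0.06, limma adjusted p = 0.877). Itga2 and Itga11 did not pass the filter, and averaged 5.64 and 5.10 in EKO and 5.66 and 5.04 in control arrays. All 6 members under the filter, with Itgad and Itgae of the leukocyte chains, read below the neg control median on every array. In a fit without the filter their unadjusted limma p-values lay between 0.146 and 0.840.

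Itga4 and Itga9 are related alpha chains that share ligands such as VCAM-1, and neither passed the test. Itga4, used by lymphocytes and monocytes, read 8.63, 8.39, 7.57 and 8.24 on EKO arrays, against 7.84, 6.72, 7.28 and 8.49 on control arrays. EKO arrays 1, 2 and 4 were higher than control arrays 1 to 3, and control array 4 was within the EKO range. The difference of 0.63 (SE 0.37, 1.54-fold, limma adjusted p = 0.626) had a 95% confidence interval of -0.23 to 1.48. Itga9, which endothelium of lymphatic vessels also uses, read 12.21, 12.17, 12.08 and 12.64 on EKO arrays, against 11.77, 12.23, 12.68 and 12.60 on control arrays (-0.04, SE 0.21, limma adjusted p = 0.952). The EKO range of Itga9 lay inside that of the controls.

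Leukocyte alpha chains held both the highest and the lowest difference of the tested members. Itgal, the alpha chain of LFA-1, read 8.80, 7.88, 7.70 and 8.59 on EKO arrays, against 8.07, 6.55, 7.23 and 8.14 on control arrays. EKO arrays 1 and 4 exceeded every control value, and EKO arrays 2 and 3 lay inside the control range (0.74, SE 0.39, 1.68-fold; limma adjusted p = 0.602). Itgax, the CD11c chain of dendritic cells and macrophages, read 7.20, 6.68, 6.56 and 6.92 on EKO arrays, against 6.68, 6.30, 6.09 and 6.69 on control arrays (0.40, SE 0.18, limma adjusted p = 0.567). The groups of Itgax overlapped, and all 8 values lay below the neg control medians.

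The opposite sign appeared in Itgam, the CD11b chain of myeloid cells, which was chosen for its values. It ranged from 6.67 to 7.56 in EKO arrays and from 6.64 to 8.03 in control arrays (-0.43, SE 0.31, limma adjusted p = 0.672). Itgb2, their common beta2 partner, likewise chosen for its values, read 8.73, 8.32, 7.85 and 8.55 on EKO arrays, against 8.27, 6.93, 8.36 and 8.93 on control arrays. Control array 2 held the lowest and control array 4 the highest value of Itgb2, so the EKO range lay inside that of the controls (0.24, SE 0.39, limma adjusted p = 0.853). The within-group SD of Itgb2, Itgal and Itga4 lay at the 97.9, 97.8 and 97.5 percentile of all genes tested. In all, 8 of the 30 tested members were in the top 10% of genes by this spread, and the others there were Itgam, Itgb5, Itga6, Itgb3 and Itgb8.

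Leukocyte markers were higher in EKO arrays as well. All 8 tested markers, Ptprc among them, had positive differences, with a median of 0.22, and 0 passed the adjusted threshold. Their mean ranged from 7.97 to 8.66 on EKO arrays and from 7.44 to 8.71 on control arrays, lowest on control array 2. With this mean as a covariate, a fit added after seeing the data, the difference of Itgal was 0.33 and that of Itga4 0.18. In the same fit Itgax stood at 0.27 and Itgb2 turned to -0.23. Itgam then differed by -0.72 (limma unadjusted p = 0.0187, adjusted p = 0.515) and Itga6 by -0.53 (limma unadjusted p = 0.00409, adjusted p = 0.515). Over all arrays Itgam and Itga6 averaged 7.23 and 7.24, below the neg control medians. With the adipocyte marker mean as the covariate the differences were 0.95 for Itgal, 0.77 for Itga4, 0.45 for Itgax and 0.49 for Itgb2. Itgam and Itga6 differed by -0.17 and -0.12 in that fit. With the smooth muscle marker mean those of Itgal, Itga4, Itgax and Itgb2 were 0.76, 0.57, 0.35 and 0.21. The cause of these changes was not tested.

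Over the 8 arrays several integrin chains followed markers of blood cells, but 0 of the 270 relations between a tested member and a marker list passed Benjamini-Hochberg adjustment. By exact permutation over all pairings of the 8 arrays, 34 relations had an unadjusted Pearson p under 0.05. Closest was Itga2b, the alphaIIb chain of the platelet fibrinogen receptor, with the mean of 6 platelet markers such as Pf4 and Ppbp. Pearson r was 0.975 (exact permutation p = 0.000223, adjusted 0.0603) and Spearman rho 0.905 (exact permutation p = 0.00456, adjusted 0.246). Without the 2 arrays farthest from the median r was 0.957. Itga2b itself read 6.57 to 7.03 on EKO arrays and 6.60 to 7.02 on control arrays, so the groups covered the same range. All 8 values of Itga2b lay below the neg control medians. The platelet markers Gp6 and Treml1 also averaged below them, at 6.77 and 6.45.

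Itgb2 and Itga4 followed the leukocyte markers across the arrays. For Itgb2 r was 0.927 (exact permutation p = 0.00134, adjusted 0.0871) and rho 0.833 (exact permutation p = 0.0154, adjusted 0.367), and r was 0.648 without the 2 farthest arrays. For Itga4 r was 0.949 (exact permutation p = 0.00161, adjusted 0.0871), rho 0.810 (exact permutation p = 0.0218, adjusted 0.367), and r without the 2 arrays 0.895. Itgal had r = 0.853 (exact permutation p = 0.00754, adjusted 0.145), rho = 0.762 (exact permutation p = 0.0368, adjusted 0.473), and 0.641 without them. Itgam followed the macrophage markers with r = 0.868 (exact permutation p = 0.00451, adjusted 0.103) and rho = 0.929 (exact permutation p = 0.00223, adjusted 0.201). Its r without the 2 farthest arrays was 0.861. The macrophage markers Mrc1, C1qc, C1qa, Adgre1 and Csf1r averaged below the neg control medians, as did Itgam, at 7.23. Itgb2 had a similar relation to the macrophage markers, with r = 0.853 (exact permutation p = 0.00992, adjusted 0.160), rho = 0.810 (exact permutation p = 0.0218, adjusted 0.367), and 0.714 without the 2 arrays. Itgam also followed the adipocyte markers, with r = 0.919 (exact permutation p = 0.00265, adjusted 0.0896), rho = 0.929 (exact permutation p = 0.00223, adjusted 0.201), and 0.909 without the 2 arrays. With the fibroblast markers Itgam had r = 0.884 (exact permutation p = 0.00491, adjusted 0.103), rho = 0.738 (exact permutation p = 0.0458, adjusted 0.476), and 0.675 without the 2 arrays.

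Itgb5, Ilk and Fermt2, chosen for their values, ran against the neutrophil markers, whose mean was highest on EKO array 2, at 9.32, and lay between 6.07 and 7.94 on the other 7 arrays. Itgb5 had r = -0.881 (exact permutation p = 0.00139, adjusted 0.0871), rho = -0.952 (exact permutation p = 0.00114, adjusted 0.201), and -0.754 without the 2 farthest arrays. For Ilk r was -0.899 (exact permutation p = 0.00216, adjusted 0.0896), rho -0.810 (exact permutation p = 0.0218, adjusted 0.367), and -0.725 without the 2 arrays. Fermt2 had r = -0.921 (exact permutation p = 0.00387, adjusted 0.103), rho = -0.810 (exact permutation p = 0.0218, adjusted 0.367), and -0.706 without them. EKO array 2 held the lowest value of these 3 genes among the 8 arrays, 9.23 for Itgb5, 12.27 for Ilk and 12.10 for Fermt2. Among the other linkers r was also negative for Parva (-0.739), Zyx (-0.710), Vcl (-0.706), Pxn (-0.552), Tln1 (-0.498) and Tln2 (-0.068). It was positive for Parvb (0.678), Lims1 (0.558) and Fermt3 (0.212). Of the neutrophil markers Ngp and Ltf averaged below the neg control medians, and Retnlg, at 7.43, within their range. The mean of 6 T and B lymphocyte markers, each averaging below those medians, was also highest on EKO array 2. With it r was -0.879 for Ilk (exact permutation p = 0.00146, adjusted 0.0871), -0.846 for Fermt2 and -0.763 for Itgb5. Without the 2 arrays farthest from its median these r were -0.559, -0.144 and -0.542. Members and markers come from the same arrays, and a group of 4 is too small for a correlation within it.

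**Figure D4:**
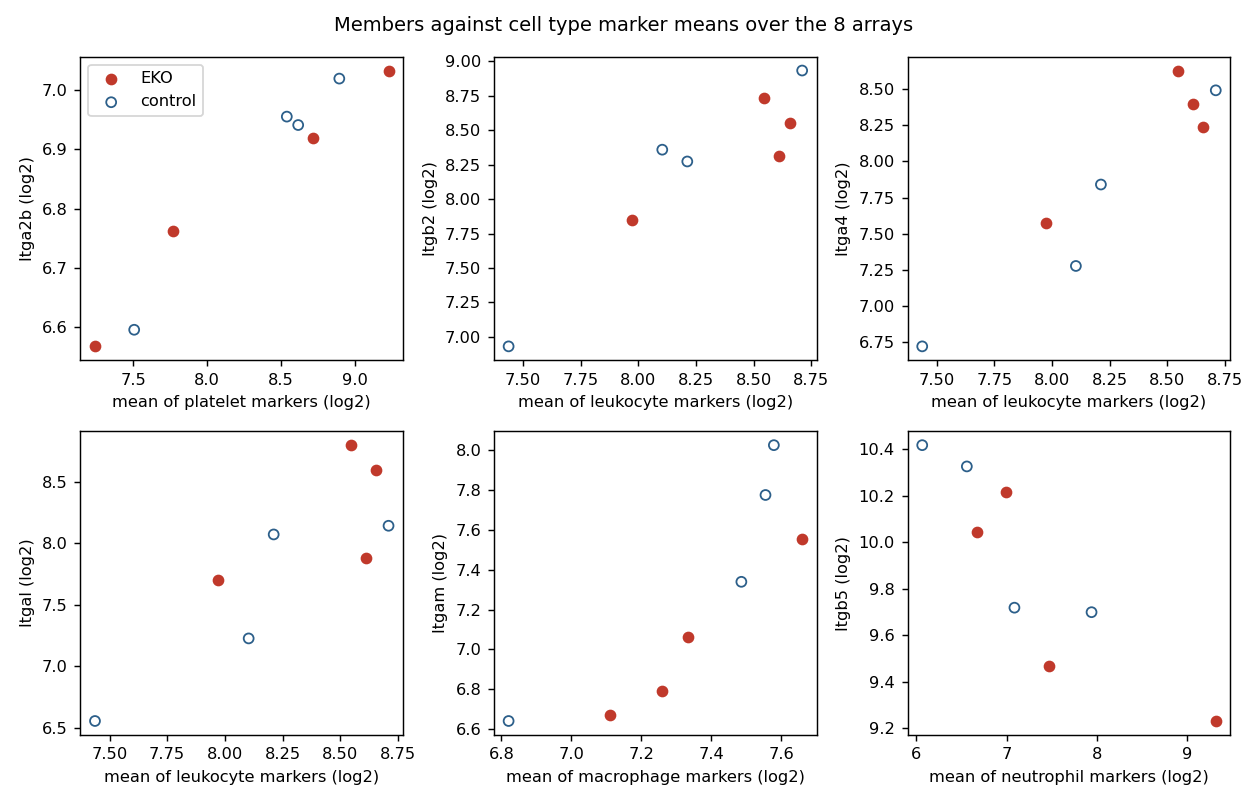
Log2 value of 6 members (vertical) against the mean log2 value of a cell type marker list (horizontal) on the 8 arrays (filled, EKO; open, control). Itga2b climbs with platelet markers in both groups (r = 0.975), at values below the neg control medians. Itgb5 runs down as neutrophil markers go up (r = -0.881).

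Chains known to form a receptor together were also compared across the arrays, over 17 alpha and beta pairs written down after the data had been seen. The correlation was positive in 12 pairs, and 0 passed adjustment over the 17. Itgal and Itgb2, the LFA-1 pair, had r = 0.821 (exact permutation p = 0.0132, adjusted 0.121), rho = 0.762 (exact permutation p = 0.0368, adjusted 0.156), and 0.654 without the 2 farthest arrays. The fibronectin receptor pair Itga5 and Itgb1 ran the other way, with r = -0.794 (exact permutation p = 0.0213, adjusted 0.121), rho = -0.786 (exact permutation p = 0.0279, adjusted 0.156), and -0.644 without the 2 arrays. The r of this pair pools both groups, which differed by 0.31 for Itga5 and -0.07 for Itgb1, and so includes that contrast. Itga2b and Itgb3, the platelet fibrinogen receptor, had r = 0.194 (exact permutation p = 0.634, adjusted 0.770) and rho = 0.190 (exact permutation p = 0.665, adjusted 0.706). This r was -0.206 without the 2 farthest arrays.

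The 4 integrin activators each had a difference below 0, and none passed the test. For Fermt2 the sign turned without EKO array 2, to 0.0529. Tln2, a talin that links integrin tails to actin, read 8.10, 8.20, 8.04 and 7.79 on EKO arrays, against 8.51, 8.28, 7.99 and 8.43 on control arrays. Control array 3 lay inside the EKO range, and the difference was -0.27 (SE 0.13, limma adjusted p = 0.587). Tln1, the more general talin, read 11.31, 11.09, 11.18 and 11.35 on EKO arrays, against 11.37, 11.22, 11.34 and 11.32 on control arrays (-0.08, SE 0.08, limma adjusted p = 0.741). The groups of Tln1 overlapped. Fermt2 and Fermt3, the kindlins of adherent cells and of blood cells, differed by -0.09 (SE 0.14) and -0.16 (SE 0.19).

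The complex of ILK, PINCH1 and the parvins, which sits on beta chain tails, gave small differences. Lims1, the PINCH1 gene, read 10.67, 10.78, 10.34 and 10.93 on EKO arrays, against 10.52, 10.37, 10.67 and 10.60 on control arrays (0.14, SE 0.13, limma adjusted p = 0.742). EKO array 3 was the lowest of all, and EKO arrays 2 and 4 lay above the control range. Parva, which binds actin, read 12.13, 11.97, 12.09 and 11.94 on EKO arrays, against 12.13, 12.29, 12.06 and 12.09 on control arrays (-0.10, SE 0.08, limma adjusted p = 0.682). Ilk and Parvb differed by -0.01 (SE 0.15) and -0.0068 (SE 0.08). For Parvb the 95% confidence interval ran from -0.19 to 0.18.

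Adaptors at the actin end overlapped throughout. Zyx, for the tension-sensitive zyxin, read 14.30, 14.09, 14.31 and 14.18 on EKO arrays, against 14.21, 14.28, 14.13 and 14.01 on control arrays (0.06, SE 0.08, limma adjusted p = 0.823). The sign of the Zyx difference turned, to -0.0040, when arrays were centred on their medians. Pxn, the scaffold paxillin, read 10.13, 9.99, 10.23 and 10.20 on EKO arrays, against 10.14, 10.15, 10.20 and 10.21 on control arrays (-0.04, SE 0.07, limma adjusted p = 0.869). Vcl, for vinculin, ranged from 11.28 to 12.19 in EKO and from 11.43 to 12.05 in control arrays.

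Other genes of the pathway were taken from a pair of lists. Of 46 other focal adhesion and integrin regulators 38 were tested, 11 higher and 27 lower in EKO aortas, with 0 past the adjusted threshold in either direction and a median difference of -0.07. The smallest p-values among them belonged to Cav1, the caveola protein (-0.24, SE 0.11), Cd47, an integrin-associated surface protein (0.14, SE 0.08), Sharpin, an integrin inhibitor (-0.10, SE 0.07), and the adaptor Crk (-0.12, SE 0.09). The limma adjusted p-values of these 4 lay between 0.574 and 0.675, and the groups did not overlap for Cav1.

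Of 30 integrin ligands 23 were tested, 8 higher and 15 lower, with 0 past the adjusted threshold and a median of -0.08. Nid1, the basement membrane nidogen, read 10.80, 10.15, 10.57 and 10.37 on EKO arrays, against 10.91, 10.99, 10.69 and 10.76 on control arrays (-0.37, SE 0.14, limma unadjusted p = 0.0291, adjusted p = 0.544). EKO array 1 alone lay within the control range. Col1a2, a collagen I chain, differed by -0.15 (SE 0.06, limma unadjusted p = 0.0471, adjusted p = 0.552), without overlap and below the neg control medians on all arrays. Mfge8, a ligand of alphav integrins, and Lama4, an endothelial laminin chain, differed by -0.21 (SE 0.10) and -0.44 (SE 0.24). Fibroblast markers averaged 8.51 ± 0.26 in EKO and 8.85 ± 0.32 in control arrays (SD, n = 4 each). They share with this list Col1a2 and Col1a1, the latter differing by 0.02 (SE 0.07). Their part in the result was not tested.

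Markers of other cells in the flush also differed in level between arrays. All 7 adipocyte markers were lower in EKO, and their mean ran from 8.43 to 10.80 on EKO and from 8.98 to 11.46 on control arrays. All 5 neutrophil markers were higher in EKO, with a mean of 7.61 ± 1.18 in EKO and 6.91 ± 0.80 in control arrays (SD, n = 4 each). Platelet markers averaged 8.24 ± 0.90 in EKO and 8.39 ± 0.61 in control arrays (SD, n = 4 each). Macrophage markers averaged 7.34 ± 0.23 in EKO and 7.36 ± 0.36 in control arrays (SD, n = 4 each). Of the genes on these lists 0 passed the adjusted limma threshold.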

How the data were processed

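Per the labels, 5 ng of total RNA per aorta was labelled with the WT Pico protocol and hybridised to an Affymetrix Mouse Transcriptome Array 1.0. Expression Console turned the scans into the deposited log2 values by its SST-RMA method, per the labels' description of the authors' processing. Version and genome build are not given in the sources used here. RMA methods include quantile normalization, which is meant to remove overall signal differences between arrays. Medians of the deposited values still ran from 6.10 to 6.24 on EKO arrays and from 6.06 to 6.15 on control arrays. All 8 columns matched a sample.

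Symbols came from the platform table, updated through RefSeq (1135 changed). For 429 symbols with several probe sets the one with the highest mean was used, and a gene was tested if its mean exceeded 6.14, the median over probe sets. The 2 groups were set against each other by limma (3.58.1, R 4.3.3), two-sided, with Benjamini-Hochberg adjustment. Correlations were tested by two-sided exact permutation in Python 3.11.15 with numpy 2.4.6. The code was tested on simulated data. The number of arrays limits precision.

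Members, lists and tests were chosen with earlier results of these data known. Described array by array are the 2 tested members of each role with the smallest p, members with an unadjusted p under 0.05, and the 4 genes of each pathway list with the smallest p in brief. Other genes were chosen for their values. Alternatives changed filter, probe set choice, normalization, variance, weights, covariates and block, and left out each array. Results of the T and B lymphocyte, Schwann cell and mesothelial marker lists, of which 6, 1 and 2 genes were tested, had 0 genes past the adjusted threshold.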

Additional observations from a re-analysis of the deposited data

Results flagged for a closer look

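Among 90 groups of 4 arrays, for 45 genes, 4 held an array that stood apart by Dixon's criterion at 95%, and chance gives such an array in about 1 of 20 groups. Control array 2 was low for Parvb, at 10.47, whereas the remaining controls spanned 10.67 to 10.70. EKO array 2 was high for Itgae, which lay under the filter on level, at 5.51 beside 5.26 to 5.29 for the remaining EKO mice. Cav1 was high on control array 2, at 14.74 beside 14.33 to 14.37, and without that array its difference was -0.14. Sharpin was low on EKO array 3, at 8.77 beside 8.90 to 8.91.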

How the results depend on the processing

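Under every alternative run, including the leukocyte covariate added after seeing the data, limma called 0 genes and 0 members at the adjusted threshold. Genes at an unadjusted p under 0.05 numbered 2714 without the filter and 808 with the filter at the 75th percentile, where 30063 and 8800 genes were tested, and 969 to 2002 with single arrays left out. Members at that p numbered 3 with arrays centred on their medians (Itga8, Itgav and Tln2) and 2 with unmoderated variance (Itgav and Itgb1). They numbered 4 with the adipocyte covariate, 3 with the leukocyte covariate, and 0 to 3 with single arrays left out. After a further quantile normalization the only such member was Itga8 (limma unadjusted p = 0.0384, adjusted p = 0.586). With the smooth muscle covariate it was Itgav (limma unadjusted p = 0.0321, adjusted p = 0.439). With the replicate number as a block 4 members had an unadjusted p under 0.05 (Itga5, Itga8, Itgal and Itgax, limma adjusted p 0.587 or more). Of all 16232 genes tested, 1593 reached that p with median centring and 1469 with unmoderated variance. The count was 1379 with the adipocyte covariate, 1568 with the leukocyte covariate and 1259 with the block, beside 1449 (8.93%) in the main fit. The labels do not say whether the replicate numbers pair the animals. Deviations of same-numbered arrays correlated at -0.16, 0.21, -0.24 and 0.13, and no array correlated best with its own number. With 4 arrays per group these values cannot show whether the animals were paired. Median centring moved the members' median to -0.11. Signs turned, for differences that did not pass, in Itga9 (0.073 with the adipocyte covariate), Zyx (-0.0040, median centring), Mef2c (0.0154 and 0.0252, quantile normalization and smooth muscle covariate), Ilk (0.0541 and 0.11, array weights and leukocyte covariate), Vcl (0.0389 and 0.13, the same settings), Itga2b (0.0629, smooth muscle covariate) and Itgb2 (-0.23, leukocyte covariate). Parvb turned to 0.0194, 0.0334 and 0.0015 with quantile normalization and the smooth muscle and adipocyte covariates. Itgb7 turned to -0.0013, -0.0635, -0.0341, -0.0018 and -0.0734 with quantile normalization, median centring, array weights and the adipocyte and leukocyte covariates. With single arrays left out signs turned within -0.23 to 0.0774 for Itga9, -0.0696 to 0.0098 for Pxn, -0.093 to 0.049 for Itga3, -0.12 to 0.0354 for Mef2c, -0.10 to 0.11 for Ilk, -0.0601 to 0.0209 for Parvb, -0.15 to 0.0272 for Itga2b, -0.16 to 0.51 for Itgb2, -0.26 to 0.0519 for Itgb3, -0.0736 to 0.0514 for Itgb7, -0.0325 to 0.30 for Itgb8, -0.19 to 0.11 for Vcl and -0.17 to 0.0529 for Fermt2. The cause was not tested. With single arrays left out the members' median lay between -0.07 and -0.0077, and 17 to 21 tested members were lower. That number was 23 with median centring and 15 at the 75th percentile filter, which tests fewer genes. With single arrays left out Itga5 ranged from 0.23 to 0.39, and kept an unadjusted p under 0.05 without EKO array 2, EKO array 4 or control array 1 but not without any of the other 5 arrays, nor with median centring, quantile normalization, unmoderated variance or the smooth muscle covariate. Itgal ranged from 0.43 (without control array 2) to 0.96 (without control array 4) and Itga4 from 0.34 to 0.93, without the same arrays.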
